A study of Mus musculus with 16 samples.

Results

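The genes described here are 40 motile cilia genes, taken by symbol from a list of regulators, axonemal dynein, radial spoke and central pair genes, tektins and related cilium genes. All 40 were found among the 26761 gene symbols of the series, which are in capitals there (FOXJ1, RFX2, RFX3, DNAH5) and in mouse style here. Polyadenylated RNA of mouse embryos was counted per gene in 16 libraries, 2 in each of 8 groups. Visceral endoderm at E7.5 came as emVE, the part that overlies the embryo proper, and as exVE, the extraembryonic part; the endoderm layer was lifted from the other tissue with needles after a short enzyme treatment. Gut tubes at E8.75 (13 somites) came from embryos carrying 1 copy of an Afp-GFP reporter, whose heads and extraembryonic membranes had been cut away. They were taken as dissociated cells, as bulk tissue, or as 4 bulk sections named anterior, anterior-midgut, midgut-posterior and posterior. The labels give no treatment and no number of embryos behind a library, and nothing in them says that the libraries of a group came from separate embryos, so p-values measure only the spread between these libraries.

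A motile cilium beats because dynein motors in an outer and an inner row of arms slide the microtubule doublets of its core, the axoneme, while radial spokes, the nexin-dynein regulatory complex and a central pair of microtubules coordinate the beat. The forkhead factor Foxj1 is the main regulator of motile cilia genes, and RFX factors act with it through a promoter element named the X-box. In the mouse embryo the node, a small pit at the anterior end of the primitive streak whose cells form notochord, carries 1 motile cilium per cell. These cilia drive a leftward flow that sets left from right, and many of them lack the central pair.

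Totals ran from 57061536 to 84509973 counts per library, and levels are given in CPM, counts scaled to a common library size with TMM factors, which correct for differences in library composition. CPM are not divided by gene length, so they compare a gene between groups and not genes with each other. In every group the libraries differed beyond sampling noise, most of all the dissociated gut tube libraries, with a chi-square per gene of 341 against a range of 30.4 (emVE) to 102.5 (posterior) in the other groups. Of 10 visceral endoderm markers, all had counts in every group, and they summed to between 13256 and 13775 CPM in emVE and to between 34106 and 35732 CPM in exVE. Node and notochord markers (T, Noto, Shh, Foxa2, Nog and Chrd) summed to between 667 and 678 CPM in emVE and to between 69.8 and 78.1 CPM in exVE. The emVE libraries thus hold node and notochord transcripts beside those of visceral endoderm. In bulk tissue a smaller share of a cell type and less RNA per cell cannot be told apart.

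The axis of these data was emVE. Summed over the 40 genes, the level was 917 and 805 CPM in emVE, 71.7 and 57.4 CPM in exVE, and between 185 and 238 CPM in the 12 gut tube libraries. Of the 40 genes, 35 had their highest group mean in emVE, which 13.1% of the 17313 genes tested had. In 32 of them each emVE library exceeded all 14 others (6.96% of genes tested), in 22 the emVE mean was at least 4 times that of the next group (1.59% of genes tested), and in 16 at least 10 times (0.658%). All 40 passed the filter on low counts, but Dnah3, Dnah12, Spag17 and Ccdc113 would not have passed without the emVE libraries, so for these 4 passing already required a high emVE level.

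**Figure D1:**
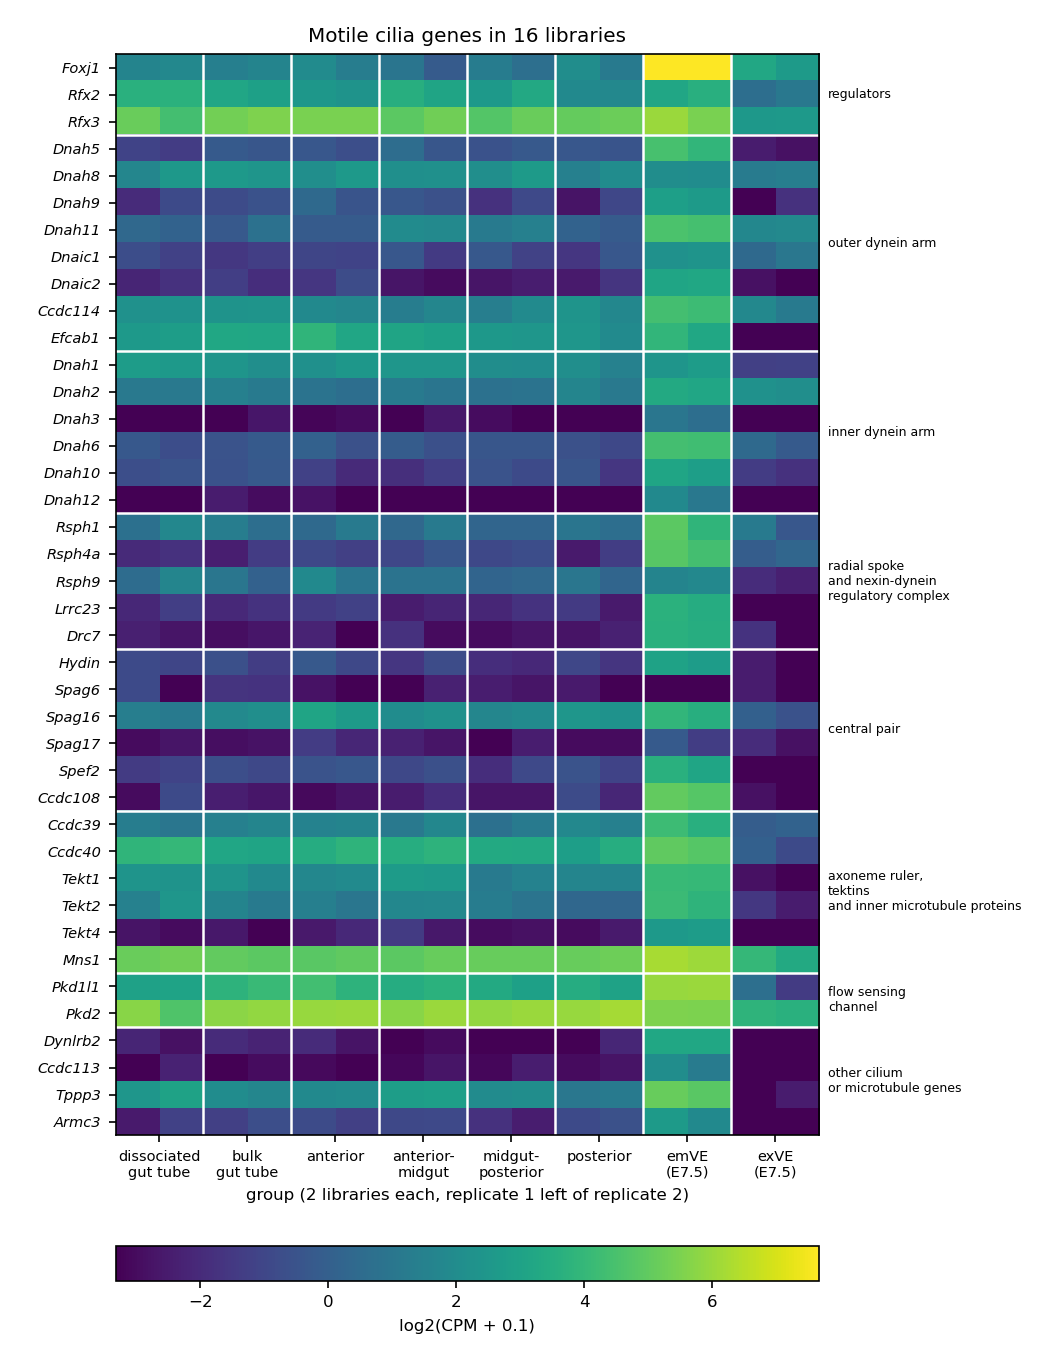
Levels of the 40 motile cilia genes (rows, grouped by role) in the 16 libraries (columns, 2 per group, replicate 1 left of replicate 2), as log2(CPM + 0.1). The emVE columns are the brightest in most rows; Rfx2, Rfx3, Dnah1, Dnah8, Efcab1, Rsph9, Spag6 and Pkd2 are the rows where an emVE library does not exceed all 14 others.

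Between emVE and exVE at E7.5, 37 of the 40 genes were higher in emVE and 0 were lower at an adjusted p under 0.05 (edgeR quasi-likelihood test, Benjamini-Hochberg over all genes tested), where 43.9% of all genes tested changed (23.8% higher, 20.1% lower). Among the 36 genes that pass the filter without emVE, 34 were called. The median log2 fold change of the 40 genes was 5.23, also with genes at 0 counts set at their bound, against 0 over all genes tested. In 9 genes no read was counted in either exVE library, so their fold changes are lower bounds, computed as if exVE had 3 counts in both libraries together. Of 6 node and notochord markers 6 were higher in emVE, of 6 paraxial mesoderm markers 5 (summed level 49.8 to 63.1 CPM in emVE, 1.17 to 3.09 CPM in exVE) and of 7 neural markers 4 (54.6 to 54.8 CPM in emVE, 2.70 to 7.20 CPM in exVE). Of 6 cardiac mesoderm markers 3 were higher (179 to 210.1 CPM in sum in emVE, 435 to 488 CPM in exVE) and of 7 gut endoderm markers 3 (3304 to 3595 CPM in emVE, 2974 to 3003 CPM in exVE). Most of the cardiac sums was Gata4, with 164 and 193 CPM in emVE and 434 and 487 CPM in exVE. The log2 fold change was above 0 for 5 of the 6 cardiac markers. The part of these markers in the cilia result was not tested. Of 5 blood markers 4 were lower in emVE, and of 5 endothelial markers 3, while none of the 10 visceral endoderm markers was higher and 1 was lower.

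Foxj1 itself stood apart from the other regulators. It had 203 and 201 CPM in emVE, against 9.40 and 6.34 CPM in exVE, a log2 fold change of 4.68 (SE 0.44, adjusted p = 1e-05, edgeR). In the gut tube it had 2.97 and 3.40 CPM in dissociated cells, 2.62 and 2.98 CPM in bulk tissue, 3.89 and 2.42 CPM at the anterior end, 1.86 and 0.779 CPM in the anterior-midgut, 2.36 and 1.49 CPM in the midgut-posterior and 4.14 and 2.22 CPM in the posterior section. In order of group means, emVE was followed by exVE, and every gut tube library, at most 4.14 CPM, lay below both.

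Rfx2 and Rfx3, which encode X-box binding factors, were lowest in exVE but were shared by emVE and gut tube. Rfx3 had 63.8 and 43.4 CPM in emVE, 5.71 and 5.91 CPM in exVE and between 20.8 and 46.0 CPM in the gut tube libraries. Rfx2 had 8.91 and 12.1 CPM in emVE, 1.45 and 2.02 CPM in exVE and between 3.45 and 12.7 CPM in the gut tube, with its highest mean in dissociated gut tube cells. The emVE over exVE log2 fold change was 3.21 (SE 0.28) for Rfx3 and 2.59 (SE 0.29) for Rfx2, with adjusted p = 6.97e-06 and 3.68e-05 (edgeR). The values of Rfx2 and Rfx3 in emVE thus overlap those of the gut tube, while those of Foxj1 do not.

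**Figure D2:**
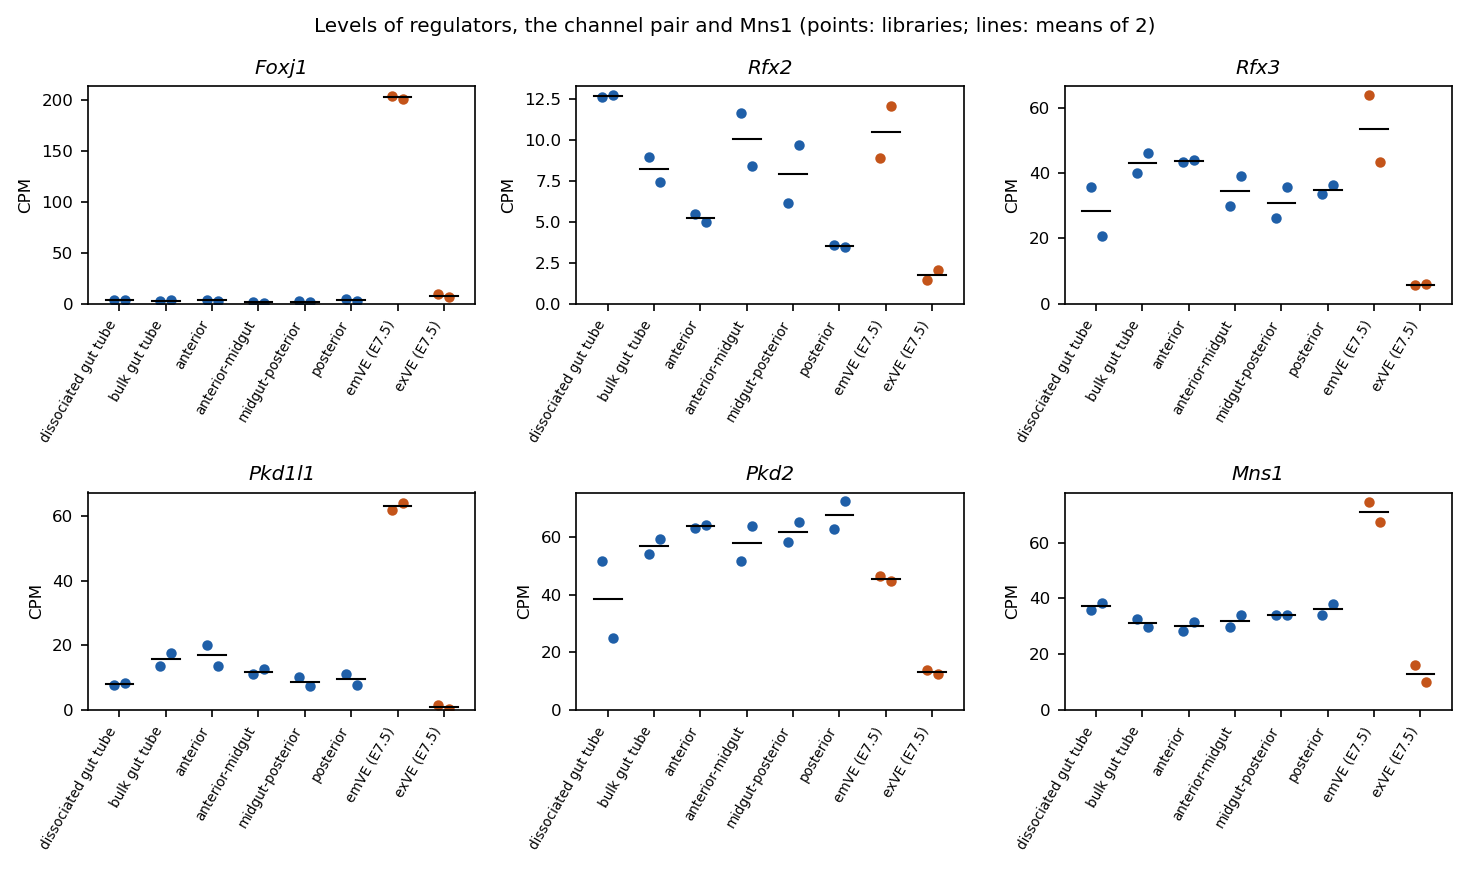
Levels in CPM (linear axes from 0, with a scale for each gene) of the regulators Foxj1, Rfx2 and Rfx3, of the channel pair Pkd1l1 and Pkd2 and of Mns1 in all 8 groups; points are libraries, lines are means of 2, blue marks E8.75 and orange E7.5. Foxj1 stands at 203 and 201 CPM in emVE and at no more than 9.40 CPM elsewhere, while Rfx2, Rfx3 and Pkd2 each have gut tube libraries above at least 1 emVE library and are lowest in exVE.

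X-boxes were looked for in the promoters of the members, from 250 bases before to 50 bases after the annotated start (RefSeq, GRCm38.p6), which were found for 33 of the 40 genes. The full pattern was an arm GTNNCC and an arm GNAAC with 3 free bases (NNN) between them, searched on both strands. It was found in 4 members (12.1%) and in 2.49% of the 27025 genes with a promoter. A gene was counted if any of its promoters matched. The short site GTTGCC, which overlaps the full pattern where the first arm is complete, was found in 15 members (45.5%) and in 14.1% of all these genes. A stricter form, with the arms GTTNCC and GGNAAC and NN between them, was found in 0 members (0.529% of all these genes). The forkhead words TGTTTAC and TGTTTGT were found in 0 members each, against 4.05% and 7.6% of all these genes. A match describes letters in this window and shows no binding. The promoters with a full X-box, all of genes that were higher in emVE than in exVE, are shown because they hold the complete motif; capitals mark the X-box, and each sequence reads along the gene (all on the + strand).

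Spag16, chr1:69826720-69827019: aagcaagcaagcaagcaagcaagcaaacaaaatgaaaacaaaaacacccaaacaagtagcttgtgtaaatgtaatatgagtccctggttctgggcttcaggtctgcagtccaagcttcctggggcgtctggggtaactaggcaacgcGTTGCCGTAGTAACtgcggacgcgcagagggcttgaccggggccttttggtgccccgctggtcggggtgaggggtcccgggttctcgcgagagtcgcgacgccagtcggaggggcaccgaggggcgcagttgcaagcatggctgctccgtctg

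Ccdc114, chr7:45923965-45924264: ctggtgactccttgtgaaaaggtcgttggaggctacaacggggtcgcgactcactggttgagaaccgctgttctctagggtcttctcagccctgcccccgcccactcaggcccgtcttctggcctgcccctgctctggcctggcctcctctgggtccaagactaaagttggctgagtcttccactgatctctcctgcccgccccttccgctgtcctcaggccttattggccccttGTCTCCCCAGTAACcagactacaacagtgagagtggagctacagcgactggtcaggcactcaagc

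Hydin, chr8:110266727-110267026: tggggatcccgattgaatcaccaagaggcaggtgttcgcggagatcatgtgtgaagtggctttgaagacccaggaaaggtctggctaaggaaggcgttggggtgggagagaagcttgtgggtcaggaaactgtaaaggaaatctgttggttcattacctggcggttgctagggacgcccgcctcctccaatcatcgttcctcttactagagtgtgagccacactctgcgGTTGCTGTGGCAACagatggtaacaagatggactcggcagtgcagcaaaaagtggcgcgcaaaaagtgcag

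Tekt4, chr17:25471340-25471639: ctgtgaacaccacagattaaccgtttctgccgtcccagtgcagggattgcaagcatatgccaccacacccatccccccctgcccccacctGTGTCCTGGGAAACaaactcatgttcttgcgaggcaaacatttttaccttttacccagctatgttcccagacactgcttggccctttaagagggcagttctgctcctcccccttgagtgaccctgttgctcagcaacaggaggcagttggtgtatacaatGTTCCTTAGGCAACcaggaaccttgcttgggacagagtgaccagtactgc

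Counted from the annotated start at 0, the X-box begins at -103 in Spag16, at -15 in Ccdc114 and at -21 in Hydin. Tekt4 has a pair of them, at -160 and at 0. The pattern reads along the gene in Spag16, Ccdc114 and the upstream site of Tekt4, and on the opposite strand in Hydin and at the start of Tekt4.

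Outer dynein arms supply most of the power of the beat. Of the 8 members of this role, 7 were higher in emVE than in exVE. Dnah5, a heavy chain of the outer arm, had 22.2 and 15.1 CPM in emVE and 0.0807 and 0.0389 CPM in exVE (log2 fold change 8.25, SE 0.54, adjusted p = 1.24e-06, edgeR); its gut tube libraries lay between 0.290 and 1.44 CPM. Dnah11, the heavy chain mutated in the iv mouse, whose left-right axis is random, had 23.6 and 21.5 CPM in emVE and 3.29 and 3.54 CPM in exVE (log2 fold change 2.72, SE 0.33). Dnah9, a paralogue of Dnah11, had 7.32 and 6.20 CPM in emVE and 0 and 0.195 CPM in exVE. For all 3 heavy chains the emVE libraries were above every other library.

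The intermediate chains behaved differently from each other. Dnaic2 had 8.59 and 9.15 CPM in emVE and 2 counts in all in exVE, a ratio of 449 with a 95% counting interval of 124 to 3710. Dnaic1 had 4.68 and 5.02 CPM in emVE and 1.25 and 1.95 CPM in exVE (log2 fold change 1.60, SE 0.57, adjusted p = 0.0392, edgeR), and this call was lost when any 1 of the 4 libraries was left out (adjusted p = 0.0747 to 0.185). Ccdc114, which docks the outer arm on the doublet, had 20.9 and 18.6 CPM in emVE and 3.41 and 2.20 CPM in exVE. Its gut tube libraries lay between 2.44 and 5.01 CPM and overlapped those of exVE.

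Efcab1 and Dnah8 were the members of this role that did not single out emVE. Efcab1, an EF-hand protein of the outer arm docking complex, had 15 and 9.39 CPM in emVE and 0 counts in exVE, so it was at least 406-fold higher in emVE; its gut tube libraries, at 3.77 to 14.4 CPM, overlapped those of emVE. Dnah8, a heavy chain best known from sperm tails, had 4.08 and 3.99 CPM in emVE and 2.30 and 2.49 CPM in exVE, a log2 fold change of 0.75 (SE 0.33, adjusted p = 0.0862, edgeR) that passed only with library totals in place of TMM (1.13, adjusted p = 0.015). Its gut tube libraries lay between 2.70 and 6.30 CPM, so its highest values were in the gut tube.

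Inner dynein arms shape the bend of the cilium, and all 6 members of this role were called higher in emVE than in exVE, of which 4 (all but Dnah3 and Dnah12) pass the filter without emVE. Dnah6 had 21.0 and 19.5 CPM in emVE and 1.27 and 0.759 CPM in exVE, and Dnah10, an inner arm heavy chain, had 8.78 and 7.14 CPM in emVE and 0.282 and 0.195 CPM in exVE. Dnah12 had 3.60 and 2.01 CPM in emVE and no counts in exVE, at least 92.8-fold higher, though DESeq2 did not call it (adjusted p = 0.177). Dnah3 had 1.90 and 1.48 CPM in emVE and no counts in exVE, at least 56.5-fold higher. These last were near the limit of detection outside emVE, with 9 gut tube libraries at 0 for Dnah12 and 7 for Dnah3. Dnah2 showed the smallest called difference of the 37, with 10.1 and 8.89 CPM in emVE and 4.58 and 4.28 CPM in exVE (log2 fold change 1.10, SE 0.26, adjusted p = 0.00481, edgeR). Dnah1 had 5.21 and 6.70 CPM in emVE and 0.323 and 0.331 CPM in exVE, but its gut tube libraries, at 2.79 to 6.59 CPM, overlapped emVE.

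Radial spokes reach from the doublets toward the central pair and the nexin-dynein regulatory complex links the doublets; all 5 members of these roles were higher in emVE. Rsph4a, a spoke head protein, had 28.2 and 20.7 CPM in emVE and 0.847 and 1.13 CPM in exVE. Rsph1, also in the spoke head, had 29.4 and 14.7 CPM in emVE and 2.16 and 0.7 CPM in exVE, with the emVE libraries far apart from each other. Rsph9 had 2.97 and 3.44 CPM in emVE and 0.161 and 0.0973 CPM in exVE, and its gut tube range of 0.976 to 3.60 CPM reached the emVE values. The spoke head genes thus differed in how far the gut tube lay below emVE. Drc7, of the regulatory complex, had 12.6 and 11.4 CPM in emVE and 0.202 and 0 CPM in exVE and stayed at or below 0.195 CPM in the gut tube. Lrrc23, a radial spoke protein, had 13.1 and 11 CPM in emVE and no counts in exVE, at least 404-fold higher. The mean of Drc7 was 108 times that of the next group, the largest such ratio among the 40 genes.

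Central pair genes were also high in emVE, with 4 of 6 called. Ccdc108, an axoneme gene counted here with the central pair, had 32.9 and 26.9 CPM in emVE and 2 counts in all in exVE, a ratio of 1502 with a 95% counting interval of 415 to 12404; in the gut tube it lay between 0.0221 and 0.476 CPM. Hydin, a very large projection protein of the central pair, had 7.95 and 6.73 CPM in emVE and 0.0807 and 0 CPM in exVE. Both were close to undetected in exVE. Spef2, needed for the central pair, had 12.5 and 8.68 CPM in emVE and no counts in exVE, at least 352-fold higher. Spag16 had 15 and 11.8 CPM in emVE and 0.928 and 0.584 CPM in exVE, with a gut tube range of 2.22 to 8.44 CPM. Of these, Spag16 was the member with the nearest gut tube values, the emVE mean being 1.83 times that of the anterior section. Spag17 was low in every library, with 0.771 and 0.304 CPM in emVE and 0.161 and 0.0389 CPM in exVE (log2 fold change 2.41, SE 1.07, adjusted p = 0.0873, edgeR).

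Spag6 was the exception of the set, with no counts in emVE, 0.0807 and 0 CPM in exVE and up to 0.458 CPM in the gut tube. The near copy Spag6l, no member of the set, had 5.95 and 3.74 CPM in emVE and 0.161 and 0 CPM in exVE (log2 fold change 5.89, SE 1.09, adjusted p = 0.00104, edgeR). How reads were split between these copies is not given in the sources used here, so the value of Spag6 alone is uncertain.

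The ruler proteins Ccdc39 and Ccdc40, which set the axoneme's repeat length, the tektins and Mns1, which lie along or inside the doublets, were all higher in emVE. Ccdc40 had 31.5 and 27.5 CPM in emVE and 0.948 and 0.447 CPM in exVE, and its partner Ccdc39 had 18.3 and 12.3 CPM in emVE and 0.847 and 0.992 CPM in exVE. Tekt1 had 17 and 16.5 CPM in emVE and 2 counts in all in exVE, a ratio of 843 with a 95% counting interval of 233 to 6964. Tekt2 had 18.1 and 14 CPM in emVE and 0.242 and 0.0778 CPM in exVE. These 4 genes kept a measurable gut tube level, from 1.14 CPM for the lowest Tekt2 library to 15.8 CPM for the highest Ccdc40 library. Tekt4, a further tektin, had 5.88 and 6.61 CPM in emVE, no counts in exVE (at least 211-fold higher) and at most 0.273 CPM in the gut tube. Mns1 had 74.8 and 67.4 CPM in emVE, 16.1 and 10.1 CPM in exVE and a narrow gut tube range of 28.5 to 38.5 CPM.

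Pkd1l1 and Pkd2 encode the partners of a channel complex that crown cells at the rim of the node need to sense the flow. Pkd1l1 had 62.0 and 64.2 CPM in emVE and 1.53 and 0.272 CPM in exVE (log2 fold change 6.13, SE 0.57, adjusted p = 1e-05, edgeR), with 7.43 to 20.2 CPM in the gut tube. Pkd2, which primary cilia throughout the body also use, had 46.4 and 44.9 CPM in emVE and 14.1 and 12.6 CPM in exVE (log2 fold change 1.77, SE 0.26, adjusted p = 0.000224, edgeR), with 25.0 to 72.5 CPM in the gut tube. The pair thus shared a low exVE level, and only Pkd1l1 had its highest values in emVE.

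The 4 remaining members were higher in emVE as well. Tppp3, a tubulin binding protein, had 34.6 and 29.3 CPM in emVE and 0 and 0.0778 CPM in exVE (log2 fold change 9.60, SE 0.55, adjusted p = 5.33e-07, edgeR). Dynlrb2, a dynein light chain, had 9.29 and 9.35 CPM in emVE and no counts in exVE, at least 314-fold higher. For both the emVE libraries exceeded all 14 others. Armc3 had 6.24 and 3.58 CPM in emVE and no counts in exVE, at least 163-fold higher. Ccdc113, which would not pass the filter without emVE, had 4.03 and 2.25 CPM in emVE and no counts in exVE, at least 104-fold higher. In the gut tube Tppp3 kept 1.97 to 8.03 CPM, whereas Dynlrb2 and Ccdc113 did not exceed 0.155 and 0.105 CPM.

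**Figure D3:**
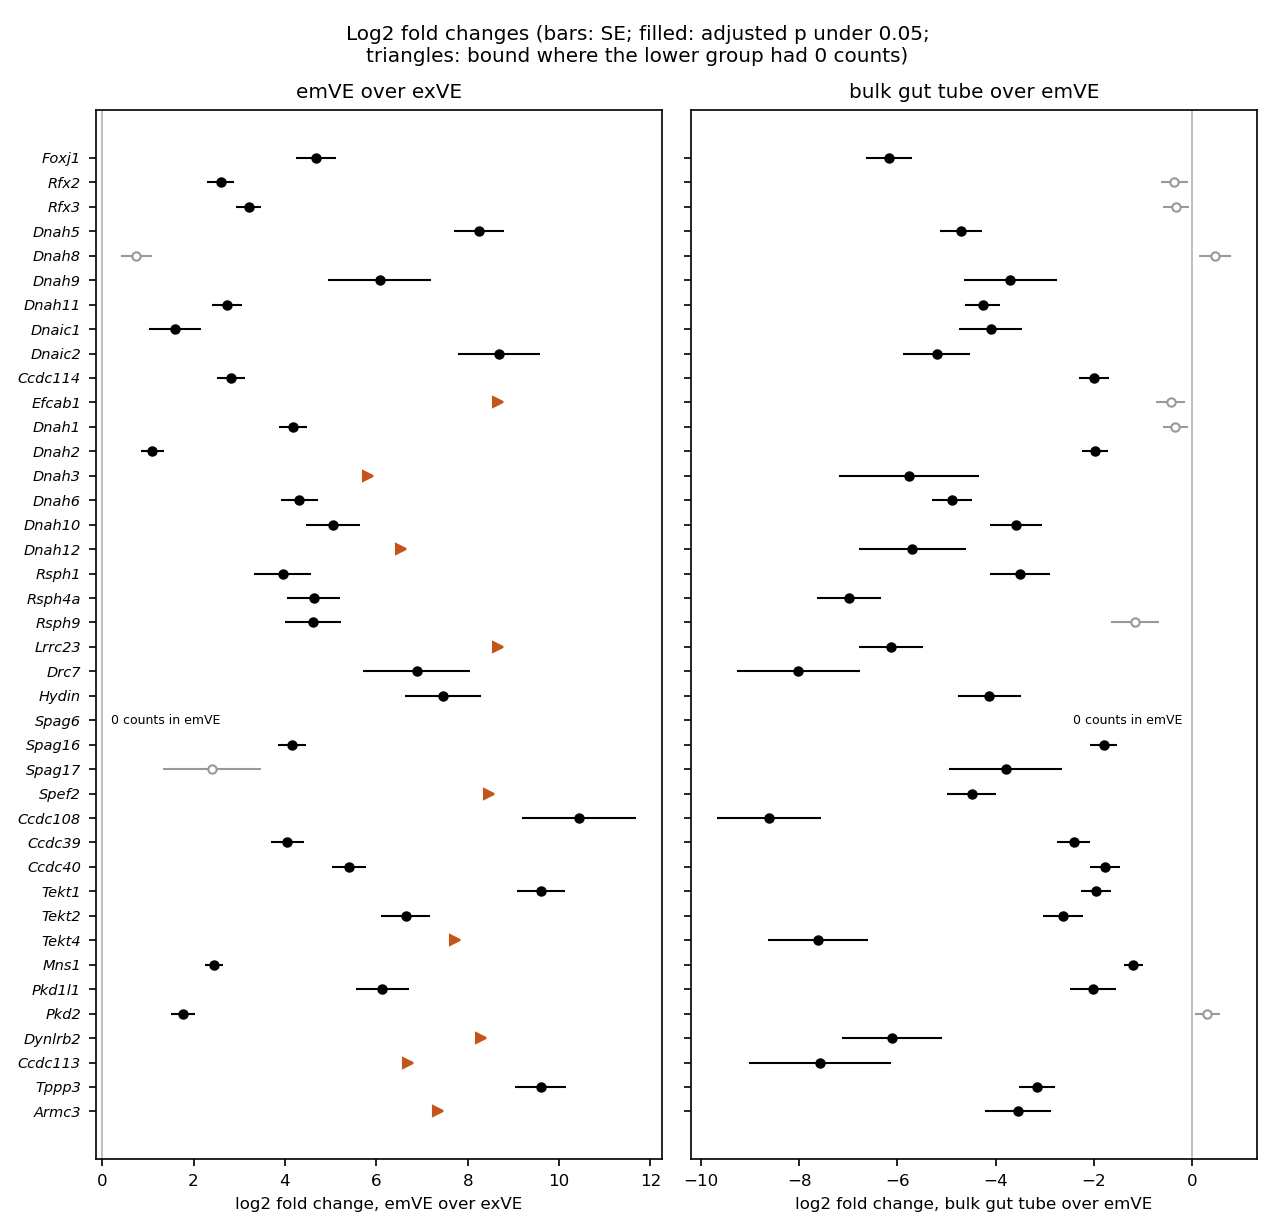
Log2 fold changes of the 40 genes for emVE over exVE (left) and for bulk gut tube over emVE (right); bars are SE, filled points have an adjusted p under 0.05, and triangles are bounds where the lower group had 0 counts. On the left 37 genes are called, all to the right of 0, and on the right 32, all to the left of 0; the panels share the emVE libraries. Dnaic2, Ccdc108 and Tekt1 on the left and Ccdc113 on the right rest on 2 counts in the lower group.

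Other genes of the motile axoneme were mostly higher in emVE than in exVE as well: of 61 tested, 55 were higher and 0 lower, with a median log2 fold change of 4.41. Of these, 58 pass the filter on low counts without emVE, and 52 of the 58 were called. Cfap44 had 21.4 and 15.2 CPM in emVE and 0.101 and 0.0389 CPM in exVE, and Ttc25, which docks outer arms, had 21.2 and 20.6 CPM in emVE and 0.484 and 0.584 CPM in exVE. Ccdc151, another docking factor, had 17.8 and 14.2 CPM in emVE and 0.686 and 0.817 CPM in exVE, and Cfap43 had 16.8 and 16.5 CPM in emVE and 1.86 and 1.87 CPM in exVE. Of 13 factors that assemble dynein arms in the cytoplasm, 7 were higher and 0 lower. Those with the lowest adjusted p were Ccdc103 (log2 fold change 5.32), Lrrc6 (7.70), Dnaaf3 (5.21) and Pih1d2 (2.08). Lrrc6 had 4.46 and 4.51 CPM in emVE and 0 and 0.0389 CPM in exVE, so the size of its fold change is uncertain. Of 28 genes of intraflagellar transport, which builds every cilium, 22 were higher and 0 lower, with a median of 1.31; Wdr35 (2.82), Ift57 (2.71), Ift81 (2.32) and Ift122 (1.78) had the lowest adjusted p. Of 26 other primary cilium genes, 19 were higher and 0 lower, with a median of 0.86, among them Bbs1 (2.53), B9d1 (1.78) and Tmem231 (2.09).

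Genes of multiciliated cells, which grow many cilia through a program of centriole amplification, were split. Of 11 tested, 6 were higher in emVE and 1, Myb, lower (4.22 and 2.21 CPM in emVE, 13.8 and 6.28 CPM in exVE). Of the 9 that pass the filter without emVE, 5 were higher and 1 lower. Myb lost its call with library totals or without exVE replicate 1 or emVE replicate 2 (adjusted p = 0.0615, 0.178 and 0.133). The 6 included Ccno with 16.5 and 11.6 CPM in emVE and 0.484 and 0.311 CPM in exVE. Ccdc67, Ccdc78 and Trp73 also rose, but stayed at or below 1.34 CPM in emVE. Of 6 further RFX genes, 1 was called: Rfx6, known from pancreas and gut development, had 8.38 and 8.13 CPM in emVE and 3.29 and 2.55 CPM in exVE.

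Genes that act around the node moved with the cilia genes. All 9 notochord and floor plate genes tested were higher in emVE, among them T (393 and 380 CPM in emVE, 8.63 and 5.15 CPM in exVE) and Noto, a node and notochord factor upstream of Foxj1 in the mouse (42.0 and 41.7 CPM in emVE, 0.161 and 0 CPM in exVE). Of 14 node and left-right genes, 9 were higher. Nodal, the left-side signal, had 10.6 and 9.50 CPM in emVE and 0.847 and 0.622 CPM in exVE, and Lefty2, its inhibitor, had 7.99 and 10.7 CPM in emVE and 0.121 and 0.0389 CPM in exVE.

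Between bulk gut tube at E8.75 and emVE at E7.5, 32 of the 40 genes were lower in the gut tube and 0 higher, where 38.6% of all genes tested changed (21.7% higher, 16.9% lower). The median log2 fold change was -3.56, against 0.08 over all genes, and 28 of the 36 genes that pass the filter without emVE were called. Tissue and stage differ together here and cannot be told apart, and the emVE libraries are those of the comparison with exVE. Visceral endoderm markers summed to between 450 and 1021 CPM in bulk gut tube and blood markers to between 441 and 752 CPM, against 10.1 to 10.9 CPM for blood markers in emVE. Endothelial markers, 5 of 5 of them higher, summed to between 313 and 321 CPM in bulk gut tube and to between 11.1 and 21.8 CPM in emVE; their part in the result was not tested. Foxj1 fell by 6.17 on the log2 scale (SE 0.47, adjusted p = 8.64e-06, edgeR), and the log2 fold change was -6.99 for Rsph4a and -6.13 for Lrrc23. The 8 genes without a call were Rfx2, Rfx3, Dnah1, Dnah8, Efcab1, Pkd2, Rsph9 and Spag6. All but Rsph9 and Spag6 had log2 fold changes between -0.43 (Efcab1) and 0.48 (Dnah8).

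The size of the difference varied by role. Of the regulators 1 of 3 was lower in bulk gut tube (median log2 fold change -0.35) and of the channel genes 1 of 2 (-0.85). All 6 ruler, tektin and inner microtubule genes were lower (median -2.18), as were all 4 genes of the last role (-4.82). Of the outer arm genes 6 of 8 were lower (median -3.90), of the inner arm genes 5 of 6 (-4.23), of the spoke and regulatory complex genes 4 of 5 (-6.13) and of the central pair genes 5 of 6 (-3.96). Dnah3, Dnah12, Spag17 and Ccdc113, which pass the filter only with the emVE libraries, are among these counts and medians. Without them 3 of 4 inner arm genes, 4 of 5 central pair genes and 3 of 3 of the last role were lower. Differences between roles were not tested. In absolute terms 20 of the 40 genes had a median below 1 CPM over the 12 gut tube libraries, 15 between 1 and 10 CPM and 5 (Rfx3, Ccdc40, Mns1, Pkd1l1 and Pkd2) at or above 10 CPM.

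Axoneme genes outside the set were mostly lower as well, 46 of 61, with 1 higher: Cfap43, with 23.4 and 24.7 CPM in bulk gut tube and 16.8 and 16.5 CPM in emVE (log2 fold change 0.53, adjusted p = 0.0222, lost without any 1 of the 4 libraries at 0.0669 to 0.0993). Of the 58 axoneme genes outside the set that pass the filter without emVE, 43 were lower and 1 higher. Genes of cilia in general were less one-sided. Of the 28 intraflagellar transport genes 9 were lower and 2 higher in bulk gut tube (median log2 fold change -0.09), and of the 26 primary cilium genes 3 were lower and 3 higher (-0.07). B9d2, a transition zone gene, had 13.7 and 10.4 CPM in bulk gut tube and 5.07 and 4.66 CPM in emVE. No test of the difference between these lists was made.

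The posterior section, which like emVE holds notochord transcripts, was set against emVE in a comparison chosen after the data were seen. Of 9 notochord and floor plate genes, 5 were called there, 1 higher and 4 lower in the posterior section (median log2 fold change -0.33). Of 14 node and left-right genes, 7 were lower and 0 higher there (median -1.20). T had 453 and 224 CPM in the posterior section and 393 and 380 CPM in emVE (log2 fold change -0.19, SE 0.43, adjusted p = 0.759, edgeR), and Noto had 51.8 and 22.9 CPM in the posterior section and 42.0 and 41.7 CPM in emVE (-0.16, SE 0.96, adjusted p = 0.911). For both genes the emVE libraries lie between the posterior ones; the tests do not show that the levels are equal. Shh, secreted by notochord and gut endoderm alike, was higher, with 204 and 92.8 CPM in the posterior section and 18.7 and 24.1 CPM in emVE (log2 fold change 2.79, SE 0.46, adjusted p = 0.000587). Foxa2 and Chrd were lower in the posterior section by 1.14 and 1.79 on the log2 scale (adjusted p = 0.0346 and 0.0148), calls that some left-out libraries removed (adjusted p up to 0.209 and 0.113). The other 2 lower genes were Ntn1 (-1.60, adjusted p = 0.000673) and Sox9 (-0.86, adjusted p = 0.0193, and 0.0551 to 0.145 without posterior replicate 2 or either emVE library).

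Against emVE, 35 of the 40 cilia genes were lower in the posterior section and 0 higher (40.7% of all genes tested changed, 21.9% higher and 18.8% lower), with a median log2 fold change of -3.87. Of the 36 genes that pass the filter without emVE, 31 were called. In the posterior section visceral endoderm markers summed to between 137 and 1261 CPM (9 of 10 lower than in emVE), endothelial markers to between 389.9 and 646 CPM (5 of 5 higher) and blood markers to between 759 and 762 CPM (4 of 5 higher); their part was not tested. The 5 without a call were Rfx3, Dnah8, Rsph9, Spag6 and Pkd2. Foxj1 had 4.14 and 2.22 CPM in the posterior section and 203 and 201 CPM in emVE, so it fell by 5.99 on the log2 scale (SE 0.47, adjusted p = 6.52e-06, edgeR). Dnah5 had 0.696 and 0.628 CPM in the posterior section and 22.2 and 15.1 CPM in emVE, and Ccdc108 had 0.476 and 0.126 CPM in the posterior section and 32.9 and 26.9 CPM in emVE. Pkd1l1 had 11.1 and 7.89 CPM in the posterior section and 62.0 and 64.2 CPM in emVE, so it fell by 2.73 (SE 0.48, adjusted p = 0.000886). Between the posterior and the anterior section 3 of the 9 notochord genes were higher and 1 was lower. T, with 453 and 224 CPM in the posterior and 54.8 and 29.3 CPM in the anterior section, was among the higher ones, and Ntn1, with 23.4 and 27.3 CPM in the posterior and 80.4 and 55.1 CPM in the anterior section, was the lower one (adjusted p = 0.0066, edgeR; 0.0681 and 0.0669 without anterior replicate 1 and posterior replicate 1). Foxj1, at 4.14 and 2.22 CPM in the posterior and 3.89 and 2.42 CPM in the anterior section, overlapped between these ends.

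**Figure D4:**
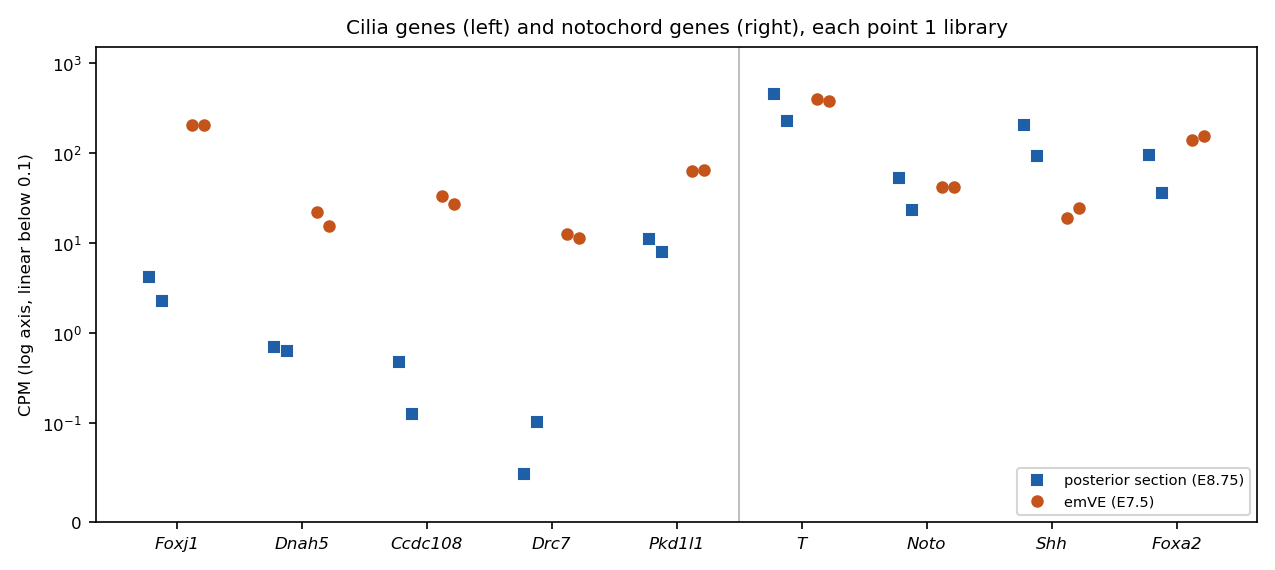
Levels in CPM (log axis, linear below 0.1) of 5 cilia genes (left of the line) and 4 notochord genes (right) in the posterior gut tube section (squares) and in emVE (circles); each point is 1 library. The cilia genes lie well below emVE in the posterior section (Foxj1 at 4.14 and 2.22 CPM against 203 and 201 CPM). T and Noto have 1 posterior library on each side of the emVE libraries, and Shh lies above them. Foxa2 lies below them, at 95.5 and 35.8 CPM against 137 and 153 CPM. Chrd, Ntn1 and Sox9, which were also lower in the posterior section, are not drawn.

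Along the gut tube few of the genes were called. An F-test across the 4 sections called 6 of the 40 genes, where 12.9% of all genes tested were called, a share near the background. DESeq2 called 11 of the 40, Foxj1 among them (adjusted p = 0.0241), and 3722 of the 17313 genes in all, where edgeR called 2236. Dnah11, Rfx2, Tppp3 and Tekt1 had their highest mean in the anterior-midgut section, and Dnaic2 and Efcab1 in the anterior section. Only Dnah11 (adjusted p = 0.00155, edgeR) kept its call under every alternative and every left-out library. Over all 40 genes the highest section mean fell in the anterior section for 16, in the anterior-midgut for 11, in the midgut-posterior for 5 and in the posterior for 8. The median log2 fold change of the 40 genes was -0.49 for the posterior over the anterior section (0.01 over all genes tested; 15 of the 40 above 0) and -0.42 for the midgut-posterior over the anterior-midgut section (11 of the 40 above 0).

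Dnah11 had 0.784 and 0.782 CPM at the anterior end, 3.86 and 3.52 CPM in the anterior-midgut, 2.21 and 2.70 CPM in the midgut-posterior and 1.01 and 0.791 CPM in the posterior section, a hump in the middle of the tube without overlap between the middle sections and the ends. It was higher in the anterior-midgut than in the anterior section by a log2 fold change of 2.23 (SE 0.33, adjusted p = 0.00302, edgeR), and lower in the posterior than in the midgut-posterior section by 1.44 (SE 0.32, adjusted p = 0.0421). The second call was lost without any 1 of the 4 libraries (adjusted p = 0.13 to 0.231) and with a replicate block (0.0639). In the anterior-midgut section visceral endoderm markers were high too, at 2328 to 6616 CPM in sum, against 104 to 147 CPM in the anterior section, with 9 of 10 called; their part in the Dnah11 difference was not tested. Dnah11 in exVE, where these markers are highest, was at 3.29 and 3.54 CPM. The markers summed to 3157 to 4956 CPM in the midgut-posterior section. In dissociated gut tube they summed to 850 to 3275 CPM, with Dnah11 at 1.21 and 0.987 CPM.

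Efcab1 fell along the tube, with 14.4 and 8.97 CPM at the anterior end, 8.53 and 7.58 CPM in the anterior-midgut, 5.69 and 5.37 CPM in the midgut-posterior and 5.42 and 3.77 CPM in the posterior section. It was the 1 gene of 40 called between the posterior and the anterior section (log2 fold change -1.35, SE 0.30, adjusted p = 0.0195, edgeR), where 7.91% of all genes tested were called (4.03% higher, 3.89% lower). Without anterior replicate 1 or posterior replicate 2 that call was lost (adjusted p = 0.176 and 0.125). Between the anterior-midgut and the anterior section 2 of 40 genes were called (5.59% of all genes, 3.42% higher and 2.17% lower), Dnah11 and Dnaic2. Dnaic2 had 0.052 and 0.026 CPM in the anterior-midgut and 0.232 and 0.492 CPM in the anterior section, so it fell by 3.15 on the log2 scale (SE 0.76, adjusted p = 0.0322), and the call was lost without any 1 library (0.0662 to 0.192).

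Tppp3 had 3.59 and 3.89 CPM at the anterior end, 6.84 and 7.32 CPM in the anterior-midgut, 3.85 and 4.08 CPM in the midgut-posterior and 1.97 and 2.16 CPM in the posterior section. Tekt1 had 3.31 and 3.71 CPM at the anterior end, 6.38 and 5.91 CPM in the anterior-midgut, 2.14 and 2.85 CPM in the midgut-posterior and 3.15 and 3.02 CPM in the posterior section. Rfx2 had 5.50 and 4.98 CPM at the anterior end, 11.7 and 8.44 CPM in the anterior-midgut, 6.16 and 9.73 CPM in the midgut-posterior and 3.58 and 3.45 CPM in the posterior section. In all 3 the anterior-midgut values were above those of the anterior and posterior ends, and in Rfx2 they overlapped the midgut-posterior values. Between the midgut-posterior and the anterior-midgut section 0 of 40 genes were called by edgeR (0.497% of all genes, 0.173% higher and 0.323% lower). There 4 members and 1241 genes had an unadjusted p under 0.05, and DESeq2 called 436 genes, 2 of them members (Tppp3 and Tekt1). Between the posterior and the midgut-posterior section Dnah11 was the 1 gene called (2.26% of all genes, 1.13% higher and 1.14% lower).

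**Figure D5:**
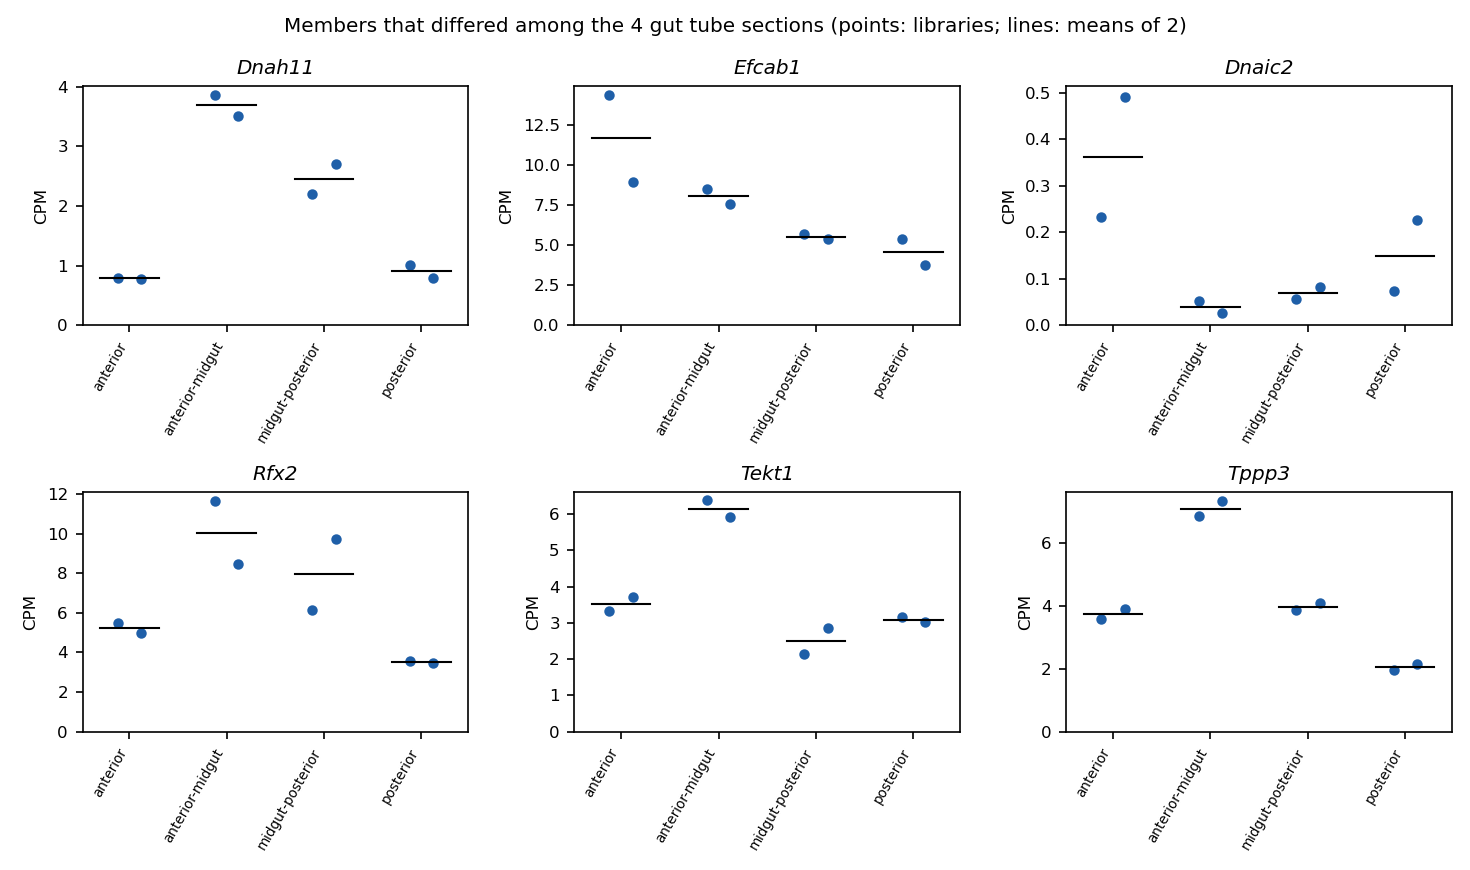
Levels in CPM (linear axes from 0, with a scale for each gene) of the 6 members called by the F-test among the 4 gut tube sections, from anterior to posterior; points are libraries and lines are means of 2. Dnah11, Tppp3, Tekt1 and Rfx2 are highest in the anterior-midgut section, Efcab1 and Dnaic2 in the anterior section; all but Dnah11 lost their call without at least 1 library.

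Some genes outside the set differed along the tube. Ccno, a gene of the multiciliated program, had 7.91 and 1.92 CPM in the posterior and 0.0442 and 0.164 CPM in the anterior section (log2 fold change 5.57, SE 1.03, adjusted p = 0.00631, edgeR; 0.0754 without anterior replicate 1). Mcidas, which starts that program, had 0.501 and 0.276 CPM in the posterior and 0.0331 and 0 CPM in the anterior section (adjusted p = 0.0713, and 0.0494 in DESeq2). Of 14 node and left-right genes 7 were higher in the posterior than in the anterior section and 0 lower. Over all genes tested 4.03% were higher there and 3.89% lower. Among the 7, Nodal had 4.08 and 2.66 CPM in the posterior and 0.287 and 0.328 CPM in the anterior section (log2 fold change 3.45, adjusted p = 0.000457, edgeR). Of the 61 other axoneme genes 1, Cfap43, was higher in the posterior than in the anterior section (log2 fold change 0.73, adjusted p = 0.0175, and 0.168 and 0.132 without anterior replicate 1 and posterior replicate 2), and of the 28 intraflagellar transport and 26 primary cilium genes 0 were called by edgeR among the sections. Rfx6 was highest in the anterior-midgut section, with 26.0 and 28.1 CPM against 2.11 and 3.42 CPM in the anterior section (log2 fold change 3.29, adjusted p = 0.000321).

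Dissociation left no called change. Between dissociated and bulk gut tube 0 of 40 members and 0% of the 17313 genes tested passed in edgeR, with 8 members and 2809 genes at an unadjusted p under 0.05; DESeq2 called 296 genes, 1 of them a member (Tppp3). Without dissociated replicate 1, 4 members passed (Tppp3, Pkd2, Rfx3 and Ccdc108) and 4754 genes in all; in that fit the remaining library is taken to vary like those of the other groups. That group's libraries stood far apart for Pkd2, with 51.8 and 25.0 CPM in dissociated cells and 54.1 and 59.5 CPM in bulk tissue, and for Rfx3, with 35.8 and 20.8 CPM in dissociated cells and 39.9 and 46.0 CPM in bulk tissue. Tppp3 had 5.30 and 8.03 CPM in dissociated cells and 3.99 and 3.20 CPM in bulk tissue.

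Similarity to Foxj1 was measured as the Pearson correlation of mean log2 CPM over the 8 group means, a description that shares the emVE peak and the 16 libraries among all genes. Of 17312 genes ranked, Trh, the precursor of thyrotropin-releasing hormone, came first (r = 0.994), with 773 ± 60.1 CPM in emVE and 30.8 ± 21.6 CPM in exVE (SD, n = 2 each) and group means of 2.20 to 8.58 CPM in the gut tube. It was followed by Eras (0.983), Bbs5 (0.979), Saxo2 (0.977), Hdac6 (0.977), Ccdc87 (0.977), Chrna9 (0.976), GM45624 (0.972), Fam161b (0.970) and Bcan (0.969). Saxo2, Bbs5 and Hdac6, which encode a microtubule-associated, a basal body and a tubulin deacetylase protein, had emVE means of 2.70, 18.0 and 284 CPM. Their exVE means were 0.433, 12.4 and 107 CPM, and the gut tube group means of Bbs5 were 10.9 to 12.4 CPM. The correlation does not measure the size of a difference. GM45624 was near the limit of detection, with means of 0.306 CPM in emVE, 0.0807 CPM in exVE and 0 CPM in every gut tube group. Of the 39 other members 5 ranked among the first 100 (Dnah6 at 27, Dnah2 at 66, Drc7 at 69, Dnah12 at 87 and Dnaic1 at 90) and 18 among the first 1000. Dnah12, and among the 18 also Dnah3, Ccdc113 and Spag17, pass the filter only with the emVE libraries. For these genes a high emVE level was required to be ranked at all. Rfx2 and Rfx3 ranked at 7719 and 7339, with r of 0.05 and 0.10.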

How the data were processed

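Gene counts of polyadenylated RNA from 16 libraries were deposited by the authors as raw, whole-number counts per gene symbol; STAR, without a version, is named in the submitters' processing notes. The counter, annotation and build behind the counts are not stated in the sources. Libraries were grouped by GEO's labels. All 16 entered 1 edgeR 4.0.16 quasi-likelihood fit (R 4.3.3) with TMM scaling, after filterByExpr (minimum count 10, minimum total 15) left 17313 genes; p-values were adjusted by Benjamini-Hochberg over all of them, with a threshold of 0.05. CPM were computed from counts, library totals and TMM factors. Totals of 57061536 to 84509973 limit counting precision; a group with 0 counts was set to a floor of 3 counts. Intervals and floors cover counting error only.

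Members and gene lists were chosen with earlier results of these data known. All members were described; from each further list up to 4 genes with the lowest adjusted p for emVE over exVE, and up to 2 in each other comparison, were named. Genes named beyond that (Spag6l, Mcidas, and T, Noto, Foxa2, Chrd, Ntn1 and Sox9 for the posterior section) were chosen after their values were seen. Alternatives were other scalings, no filter, a replicate block, only the compared groups, DESeq2 1.42.0 and leaving out each library. The scripts were tested on simulated data. Promoter sequences are from RefSeq (GRCm38.p6). Results for some genes of the further lists are not reported here.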

Additional observations from a re-analysis of the deposited data

How the results depend on the processing

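Counts of called members moved by over 1.5 times in these cases. For the posterior over the anterior section 0 were called with only the compared groups and 4 with DESeq2, and for the anterior-midgut over the anterior section 1 and 7. For the midgut-posterior over the anterior-midgut section DESeq2 called 2. For the posterior over the midgut-posterior section 2 were called with no filter, 0 with the replicate block, 0 with only the compared groups and 3 with DESeq2. Over all genes these settings called 558, 304, 17 and 1291, against 392 in the fit described above. DESeq2 called 1 member between dissociated and bulk gut tube and 11 among the 4 sections. Over all genes DESeq2 called 1729 for the anterior-midgut over the anterior section (edgeR 968) and 2280 for the posterior over the anterior section (1370). It called 436 for the midgut-posterior over the anterior-midgut section (86), 3722 among the sections (2236) and 296 between dissociated and bulk gut tube (0). With only the compared groups 941 genes were called for the posterior over the anterior section and 1327 for the anterior-midgut over the anterior section. No result reversed.

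Leaving out 1 library at a time, with the lone library of that group taken to vary like the other groups, gave 36 to 36 called members for emVE over exVE, 28 to 32 for bulk gut tube over emVE, 33 to 35 for the posterior section over emVE, 0 to 1 for posterior over anterior, 1 to 1 for anterior-midgut over anterior, 0 to 0 for midgut-posterior over anterior-midgut, 0 to 0 for posterior over midgut-posterior, 0 to 4 for dissociated over bulk and 1 to 4 among the sections. With the replicate block the counts were 36 for emVE over exVE, 32 for bulk gut tube over emVE, 35 for the posterior section over emVE, 1 for posterior over anterior, 2 for anterior-midgut over anterior, 0 for midgut-posterior over anterior-midgut, 0 for dissociated over bulk and 4 among the sections. The number called over all genes tested also changed in most of these fits, and whether the members changed more was not tested. The labels do not say what a replicate number marks, and the deviations of same-numbered libraries correlated between -0.108 and 0.216. Library totals in place of TMM moved the median of all genes by 0.377 (log2) for emVE over exVE and by 0.109 for bulk gut tube over emVE, and Dnah8 was the 1 member whose emVE over exVE call this changed. The causes were not tested. With 2 libraries a group, small differences between sections may have been missed.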
